A study of Homo sapiens with 6 samples.

Results

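The replication-dependent histone genes encode the linker histone H1 and the core histones H2A, H2B, H3 and H4 that package newly copied DNA. They were chosen by symbol (H1-1 to H1-6, and the numbered H2AC, H2BC, H3C and H4C genes), which gave 69 of the 20348 genes in the deposited table. There were 6 H1, 17 H2A, 18 H2B, 13 H3 and 15 H4 genes. RNA-seq was made from MV4-11, an established human acute myeloid leukemia cell line. The Control group held 3 untreated samples, and the WNK463 group held 3 samples given 1 μM WNK463, a compound that inhibits WNK kinases, for 48 h. No vehicle is named for either group, so the differences below may include an effect of a solvent. Nothing in the labels says that the replicates were separate cultures, so the p-values measure the spread between these samples, which may be technical. The total counts were 17411780, 15328483 and 17246723 in Control and 15824474, 16171235 and 14915745 with WNK463.

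As background, these genes lie in clusters, have no introns in most cases and are transcribed mainly while DNA is copied in S phase. Their mRNAs normally end in a short stem-loop in place of a poly(A) tail, and the stem-loop binding protein SLBP holds on to it during processing, translation and decay. Cells that stop dividing can make polyadenylated forms of some of these mRNAs, which extend past the stem-loop. The libraries were made from mRNA enriched on capture beads, and how mRNAs without a poly(A) tail are recovered by them was not tested.

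WNK463 samples held more histone mRNA counts than Control samples in every histone type. The 69 genes had 710, 604 and 699 counts in Control and 4658, 4986 and 4694 with WNK463. These were small parts of the libraries, at 0.00408%, 0.00394% and 0.00405% of all counts in Control and 0.0294%, 0.0308% and 0.0315% with WNK463. All 3 WNK463 samples lay above all 3 Control samples. In bulk samples such as these, a change in the number of cells of a kind and a change in RNA per cell cannot be told apart.

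The 3′ stem-loop is shown because it is the element the family shares at the RNA level and the point past which longer transcripts run. It was searched in the GENCODE 29 transcripts on GRCh38 as 16 bases after the stop codon that start with GG and end with CC, with a stem of 6 base pairs (G-U pairs allowed) and a loop of 4 bases with T at its bases 1 and 3. Genes were matched by Ensembl identifier for 65 of the 69 and by an older symbol for 4. Of the 69 genes, 35 had an annotated 3′ UTR, and 31 of these held a match. The commonest form was shared by 17 genes of the H2A, H2B and H3 types. Each sequence runs 5′ to 3′ with 5 bases on either side, and capitals mark the stem and loop.
H2AC18: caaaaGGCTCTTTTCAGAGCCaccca
H2AC6: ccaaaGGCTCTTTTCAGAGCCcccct
H2BC21: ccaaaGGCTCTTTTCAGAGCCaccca
H2BC9: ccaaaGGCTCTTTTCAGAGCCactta
H2BC4: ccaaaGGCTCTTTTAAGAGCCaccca
H3C6: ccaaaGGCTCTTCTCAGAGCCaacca
H4C8: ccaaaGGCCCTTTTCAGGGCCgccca
H4C15: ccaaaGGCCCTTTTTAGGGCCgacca
These lie in 3′ UTRs at chr1:149842218-149842243 (minus strand) for H2AC18, chr6:26124664-26124689 (plus) for H2AC6, chr1:149886183-149886208 (minus) for H2BC21 and chr6:26252050-26252075 (plus) for H2BC9. The others are at chr6:26123467-26123492 (minus) for H2BC4, chr6:26225591-26225616 (plus) for H3C6, chr6:26285126-26285151 (minus) for H4C8 and chr1:149860764-149860789 (minus) for H4C15. H2BC9, whose counts fell, has the same 16 bases as H2AC18, H2AC6 and H2BC21, whose counts rose.

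The promoters are shown because genes of 1 type, and neighbours that share an interval, moved in different directions. RefSeq promoters (GRCh38.p14, 250 bases before to 50 bases after the start) were found for 64 of the 69 genes. The letters searched, on both strands, were TATAA (letters of the TATA box, at any distance from the start), CCAAT (the letters of the CCAAT box) and ATTTGCAT (the octamer, a site known from H2B promoters). TATAA was in 59 of the 64 promoters (92.2%) and in 20.4% of all 35116 promoters. CCAAT was in 54 (84.4%) and in 34.6% of all promoters. By type it was in every H1, H2A, H2B and H3 promoter found but in only 3 of the 13 H4 promoters (23.1%). ATTTGCAT was in 26 (40.6%) and in 1.77% of all promoters, and those 26 were 14 of the 18 H2B, 11 of the 16 H2A and 1 of the 11 H3 promoters. The H3 entry is H3C4, to which RefSeq gives the same start and so the same window as H2AC7, which is counted among the H2A promoters too. H2A and H2B genes that start close together on opposite strands have overlapping windows. A site in the overlap is counted for both genes, so these are counts of promoters and not of separate sites. Capitals mark these letters on either strand, and a stretch in capitals longer than a motif is where matches overlap.
H2BC21: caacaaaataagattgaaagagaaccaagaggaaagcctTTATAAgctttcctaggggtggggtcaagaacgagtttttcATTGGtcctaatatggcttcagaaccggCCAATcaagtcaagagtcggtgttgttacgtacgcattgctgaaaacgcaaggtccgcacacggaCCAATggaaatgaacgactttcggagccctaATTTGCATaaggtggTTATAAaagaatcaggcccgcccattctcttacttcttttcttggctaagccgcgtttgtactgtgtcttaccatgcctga
H2BC9: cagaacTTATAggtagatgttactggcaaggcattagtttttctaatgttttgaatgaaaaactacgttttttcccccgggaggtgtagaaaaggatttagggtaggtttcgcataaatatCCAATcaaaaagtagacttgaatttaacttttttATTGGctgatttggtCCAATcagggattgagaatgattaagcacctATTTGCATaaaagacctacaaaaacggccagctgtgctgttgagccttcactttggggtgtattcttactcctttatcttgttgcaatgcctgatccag
H2BC12: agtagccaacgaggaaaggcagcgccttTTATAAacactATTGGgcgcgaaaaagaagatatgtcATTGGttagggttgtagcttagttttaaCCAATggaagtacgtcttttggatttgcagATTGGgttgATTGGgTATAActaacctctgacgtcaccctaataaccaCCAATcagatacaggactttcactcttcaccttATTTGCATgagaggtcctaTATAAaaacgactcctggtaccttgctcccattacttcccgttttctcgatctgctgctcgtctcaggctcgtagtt
H2AC18: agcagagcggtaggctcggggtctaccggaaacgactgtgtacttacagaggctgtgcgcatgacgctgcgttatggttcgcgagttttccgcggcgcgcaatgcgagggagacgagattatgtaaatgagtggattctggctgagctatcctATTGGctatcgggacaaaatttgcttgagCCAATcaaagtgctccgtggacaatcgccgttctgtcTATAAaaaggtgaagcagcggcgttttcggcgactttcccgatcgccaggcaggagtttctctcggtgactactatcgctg
The windows are chr1:149886633-149886932 (minus strand), chr6:26251364-26251663 (plus), chr6:27146809-27147108 (minus) and chr1:149842701-149843000 (minus). Those of H2BC21 and H2BC12, which rose, and of H2BC9, which fell, each held all 3 motifs. In H2BC9 the TATAA match was only on the opposite strand at the far end of the window from the start. H2BC21, H2BC12 and also H2AC20, which fell, held it close to the start. H2BC15, which rose, held it only on the opposite strand and away from the start, and H2BC26, which rose, did not hold it. Whether the position of TATAA goes with the direction was not tested. That of H2AC18 held TATAA and CCAAT. Among H2B promoters, ATTTGCAT was in 4 of 7 of genes called higher and in 9 of 10 of genes below the filter on low counts.

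Counts were scaled to CPM (counts per 1000000 counts) with edgeR's TMM library sizes and summed over every gene of a type, with or without enough counts to be tested alone. The H2A genes took the largest share of the counts of the 5 types, 49.4% in Control and 59.2% with WNK463. They went from 21.0 ± 1.08 to 171.8 ± 5.89 CPM (n = 3, SD), an 8.20-fold ratio of means. The H2B genes went from 11.1 ± 0.542 to 84.8 ± 1.27 CPM (n = 3, SD), a 7.66-fold ratio. H2A and H2B form dimers in the nucleosome, and together they held 75.6% of histone counts in Control and 88.4% with WNK463. The linker histone H1 genes went from 5.25 ± 0.750 to 17.4 ± 1.14 CPM (n = 3, SD), a 3.31-fold ratio. The H3 genes had the lowest sum, 1.73 ± 0.0937 CPM in Control and 6.39 ± 0.554 with WNK463 (n = 3, SD), a 3.70-fold ratio. The H3 value rested on H3C10, without which its log2 ratio was 1.04 in place of 1.89, and with only the tested H3 genes it was 2.77. The H4 genes, whose protein pairs with H3, went from 3.42 ± 0.219 to 9.93 ± 1.55 CPM (n = 3, SD), a 2.90-fold ratio. For each type the groups did not overlap and the difference of the means exceeded the SD of either group. The differences between types were not tested.

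**Figure D1:**
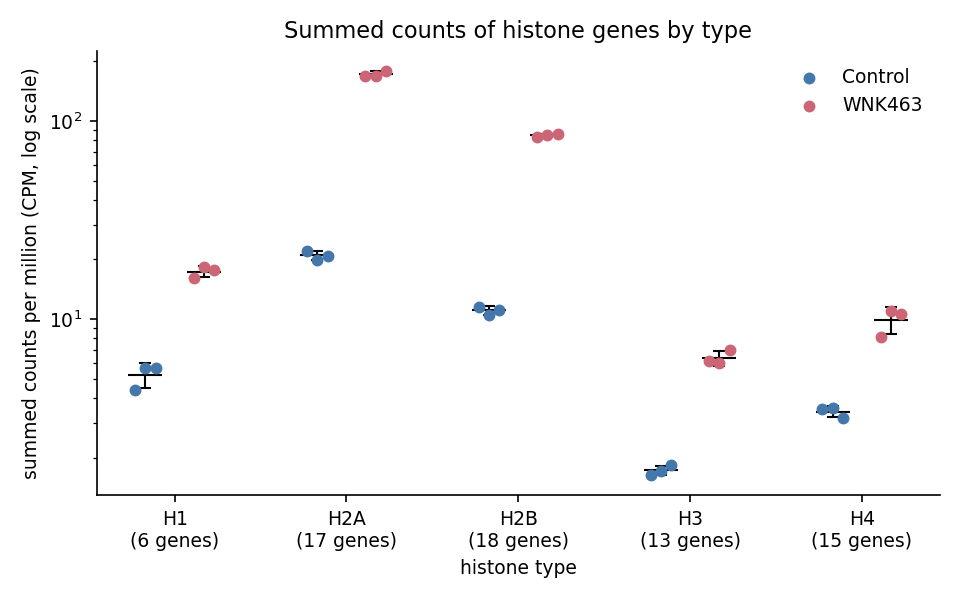
Summed CPM (log scale) of the genes of each histone type in each sample, with the mean and SD of 3 samples per group. In each type all WNK463 points lie above all Control points, and the gap is widest for H2A (21.0 to 171.8 CPM).

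Counts were tested gene by gene over the whole table with edgeR's quasi-likelihood test, and a gene was called at a Benjamini-Hochberg adjusted p below 0.05. Of the 69 histone genes, 21 passed the filter on low counts. Of these, 18 were called higher, beside 35.5% of the 11973 genes tested, and 2 were called lower, beside 35.3%. H4C12 was not called. The median log2 fold change of the 21 was 2.74, beside 0.02 for all genes tested. A gene could pass the filter through the group where it was high, so the count and the median describe the 21 genes and not the family. Without the filter the median was 1.87 over 59 genes, and with at least 10 counts in every sample only 7 genes were tested, all called higher. Scaling by total counts raised the median of all genes by 0.15 and turned the direction of none of the 21.

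The other 48 genes had too few counts. All counts were 0 for 10 of them, 23 had 1 to 10 counts over the 6 samples, and 15 had more. Those 15 had 132 counts in Control and 666 with WNK463 in total, but 339 of the latter were from H2AC19 in 1 sample, and without that gene the totals were 132 and 327. In 8 of the 15 all WNK463 samples lay above all Control samples, in H2BC13 and H3C3 they lay below, and in 5 the groups overlapped. H2BC13 had 2, 6 and 4 counts in Control and 1, 1 and 1 with WNK463. On the CPM scale, the WNK463 samples lay above the Control samples in 17 of the 21 tested genes and below them in 2. Over the whole table these shares were 37.1% and 36.4% of the genes tested. The limit of the filter given above applies to the 21. Over all 69 genes the WNK463 samples lay above in 26 and below in 6, which those shares of tested genes do not match. For H3C7 and H3C11, among those 6, the order came from library scaling, since both groups held samples with a count of 1.

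**Figure D2:**
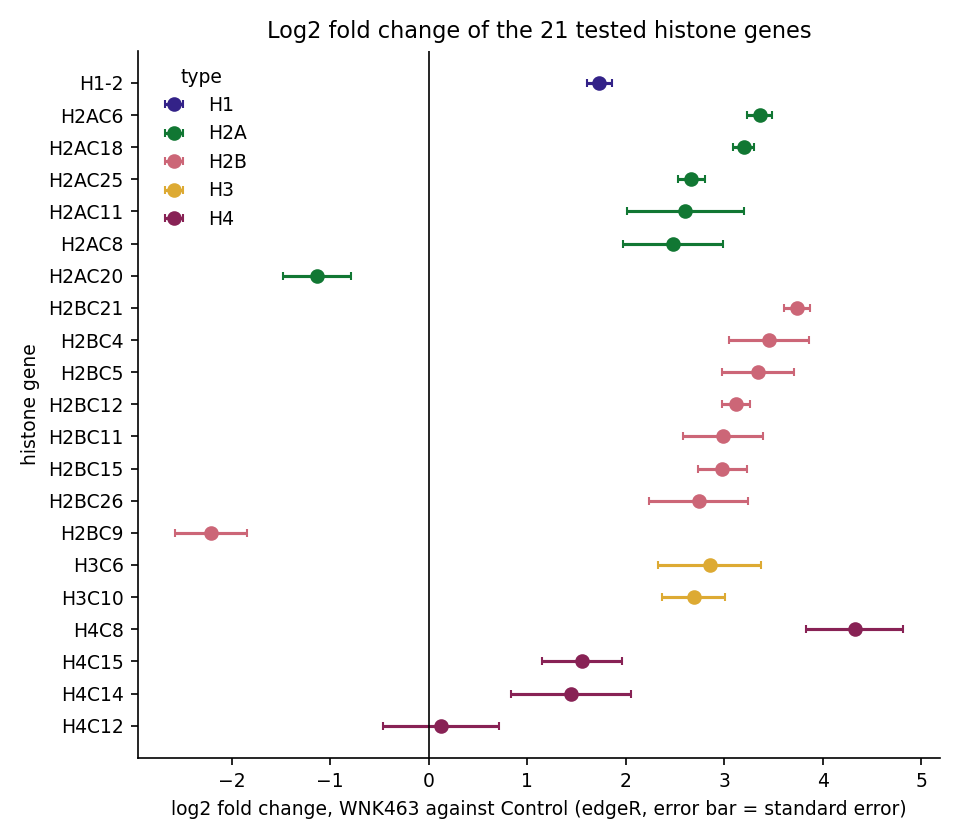
Log2 fold change of the 21 tested histone genes from edgeR, with the standard error as the bar, colored by type. H2BC9 (-2.21) and H2AC20 (-1.14) lie below 0, and the error bar of H4C12 crosses 0.

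Among the H1 genes, H1-2 (ENSG00000187837) held 98.5% of the counts with WNK463. H1-2, a linker histone that binds where DNA enters and leaves the nucleosome, had 72, 83 and 89 counts in Control and 264, 314 and 269 with WNK463. It rose from 5.17 ± 0.692 to 17.1 ± 1.16 CPM (n = 3, SD), a log2 fold change of 1.73 (standard error 0.13, edgeR adjusted p = 1.3e-09), in 3 of 3 samples. The other 5 H1 genes were below the filter. H1-4 had 0, 0 and 2 counts in Control and 2, 0 and 4 with WNK463. H1-5 had 0, 0 and 2 counts in Control and 0, 0 and 3 with WNK463, so neither can be read for a change.

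H2AC18 (ENSG00000288825) was the most abundant histone gene, at a mean of 239.5 TPM (transcripts per 1000000 transcripts, which allows for length) over the 6 samples. It had 206, 160 and 202 counts in Control and 1486, 2031 and 1903 with WNK463. Its log2 fold change was 3.20 (standard error 0.11, edgeR adjusted p = 6.1e-14), and the groups did not overlap. Its coding sequence is identical to that of H2AC19, and reads cannot be assigned between them with certainty. H2AC19 had 339 counts in WNK463 replicate 1 and 0 in each of the other 5 samples, while H2AC18 was lowest of its group in that same sample. Added up, the pair had 206, 160 and 202 counts in Control and 1825, 2031 and 1903 with WNK463, a 9.76-fold ratio of CPM.

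Next by level among the H2A genes were H2AC25, at a mean of 35.1 TPM, and H2AC6, at 32.8 TPM. H2AC25 had 64, 56 and 51 counts in Control and 424, 345 and 364 with WNK463, a log2 fold change of 2.67 (standard error 0.14, edgeR adjusted p = 1.0e-11). H2AC6 had 47, 31 and 45 counts in Control and 414, 457 and 446 with WNK463, a log2 fold change of 3.36 (standard error 0.13, edgeR adjusted p = 2.8e-13). In both genes each WNK463 sample was above each Control sample. H2AC8 and H2AC11 were called higher at lower levels, with log2 fold changes of 2.48 and 2.61. With limma on log2(TPM + 1) these values were 1.67 and 1.62. For H2AC11, Control replicate 1 held 4 of the 6 Control counts, and without that sample the log2 fold change was 3.49.

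H2AC20 (ENSG00000184260) was the tested H2A gene that fell. It had 26, 22 and 24 counts in Control and 8, 15 and 11 with WNK463. The WNK463 samples were all below the Control samples. Its log2 fold change was -1.14 (standard error 0.35, edgeR adjusted p = 0.0074).

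Among the H2B genes, H2BC12 (ENSG00000197903) was the most abundant, at a mean of 86.9 TPM. It had 95, 56 and 50 counts in Control and 566, 667 and 588 with WNK463, a log2 fold change of 3.12 (standard error 0.14, edgeR adjusted p = 2.4e-12). H2BC21, at 14.2 TPM, had 31, 27 and 41 counts in Control and 486, 450 and 442 with WNK463, a log2 fold change of 3.74 (standard error 0.13, edgeR adjusted p = 1.2e-13). H2BC5, at 6.64 TPM, had 6, 2 and 10 counts in Control and 61, 81 and 52 with WNK463, a log2 fold change of 3.34 (standard error 0.37, edgeR adjusted p = 2.6e-07). None of these 3 genes had groups that overlapped. H2BC4, H2BC11, H2BC15 and H2BC26 also rose, with log2 fold changes of 3.45, 2.99, 2.98 and 2.74. With limma on log2(TPM + 1), H2BC5, H2BC4, H2BC11 and H2BC15 were at 2.75, 2.68, 2.35 and 2.87. For H2BC4, Control replicate 2 held 10 of the 16 Control counts, and without that sample the log2 fold change was 4.31. For H2BC15, limma on log2(TPM + 0.1) gave 4.15, and its mean TPM was 0.484 in Control and 9.79 with WNK463. H2BC26 had at most 3 counts in any Control sample. Its ratio of summed counts was 6.99 with an exact 95% interval of 3.16 to 18.3, which covers counting error only. On the TPM scale H2BC26 changed more, from a mean of 0.0543 in Control to 1.40 with WNK463.

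H2BC9 (ENSG00000275713) was the tested H2B gene that fell. It had 32, 28 and 39 counts in Control and 11, 6 and 5 with WNK463, with no overlap. Its log2 fold change was -2.21 (standard error 0.37, edgeR adjusted p = 3.6e-05). H2BC9 and H2AC20 were called lower in each fit that left out 1 sample. H2BC9 is in the same cluster on chromosome 6 as H2AC6 and H4C8, which rose.

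H3C10 and H3C6 were the tested H3 genes, and both rose. H3C10, at a mean of 4.75 TPM, had 9, 5 and 16 counts in Control and 70, 64 and 69 with WNK463, a log2 fold change of 2.69 (standard error 0.32, edgeR adjusted p = 6.2e-07). With limma on log2(TPM + 1) the log2 fold change of H3C10 was 1.94. H3C6, at 0.617 TPM, had 4, 2 and 1 counts in Control and 18, 16 and 21 with WNK463, a log2 fold change of 2.85 (standard error 0.52, edgeR adjusted p = 9.6e-05). On the TPM scale H3C6 changed less, from a mean of 0.347 in Control to 0.887 with WNK463. The groups did not overlap in either gene. Below the filter, H3C3, at 1.28 TPM, had 6, 7 and 9 counts in Control and 3, 5 and 1 with WNK463. H3C15, at 0.951 TPM, had 1, 1 and 0 counts in Control and 3, 9 and 9 with WNK463. Neither was tested, and their WNK463 samples lay on opposite sides of Control. The 13 H3 genes have 12 different coding sequences but encode only 2 different proteins.

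The 15 H4 genes encode 2 different proteins from 13 different coding sequences, and in identical H4 copies a low count in 1 copy could stand beside a high count in the other in the same sample. H4C8 had 1, 0 and 7 counts in Control and 52, 69 and 53 with WNK463, a log2 fold change of 4.32 (standard error 0.50, edgeR adjusted p = 4.2e-07). Control replicate 3 held 7 of its 8 Control counts, and without that sample the log2 fold change was 6.45. With limma on log2(TPM + 1) it was 2.36. H4C15, the H4 gene with the highest mean at 4.72 TPM, had 27, 19 and 3 counts in Control and 58, 48 and 45 with WNK463, a log2 fold change of 1.55 (standard error 0.40, edgeR adjusted p = 0.0023).

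H4C14 has the same coding sequence as H4C15, and had 6, 3 and 19 counts in Control and 5, 30 and 44 with WNK463. Its groups overlapped, and its log2 fold change was 1.44 (standard error 0.61, edgeR adjusted p = 0.043). It was not called without Control replicate 1 (log2 fold change 1.18), Control replicate 2 (1.06), WNK463 replicate 2 (1.38) or WNK463 replicate 3 (0.80). It was called without Control replicate 3 (2.43) and WNK463 replicate 1 (1.93). DESeq2 and both limma fits on TPM did not call it either, with log2 fold changes of 1.47, 1.04 and 1.55. In Control replicate 3, H4C15 was lowest of its group where H4C14 was highest. Added up, the pair had 33, 22 and 22 counts in Control and 63, 78 and 89 with WNK463, and the groups no longer overlapped.

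H4C12 had 14, 0 and 17 counts in Control and 9, 14 and 12 with WNK463, a log2 fold change of 0.13 (standard error 0.59, edgeR adjusted p = 0.85). H4C11, with an identical coding sequence, had 24 counts in Control replicate 2, where H4C12 had 0. Added up, these copies had 14, 24 and 17 counts in Control and 9, 23 and 12 with WNK463, which overlapped. Without Control replicate 2 the log2 fold change of H4C12 was -0.42, and its direction was not set by these data. H3C14 and H3C15 also have identical coding sequences.

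By position in RefSeq (GRCh38.p14), the genes fall into 6 groups separated by more than 500 kb. The largest, chr6:25726063-26285534, holds 34 of the genes, and its summed counts went from 12.2 ± 1.08 to 60.7 ± 2.57 CPM (n = 3, SD), a 4.96-fold ratio. Of its 8 tested genes, 7 rose and H2BC9 fell, beside 35.5% higher and 35.3% lower over all genes tested. The chromosome 1 cluster at chr1:149782689-149887965 holds 11 genes and went from 17.5 ± 1.36 to 151.3 ± 6.28 CPM (n = 3, SD), an 8.63-fold ratio. It holds H2AC18 and the larger share of histone counts, 41.4% in Control and 52.1% with WNK463, and 4 of its 5 tested genes rose while H2AC20 fell. The pair H2AC25 and H2BC26 at chr1:228457364-228458558 went from 3.76 ± 0.463 to 24.0 ± 2.66 CPM (n = 3, SD), a 6.38-fold ratio.

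Differences between clusters were not tested. On chromosome 6, the 5 genes at chr6:27132316-27147562, which include H2BC12, went from 4.63 ± 1.38 to 39.9 ± 2.01 CPM (n = 3, SD), an 8.62-fold ratio. The 16 genes at chr6:27807479-27893891, which include H2BC15 and H3C10, went from 4.06 ± 0.909 to 13.7 ± 1.41 CPM (n = 3, SD), a 3.38-fold ratio. With only its 3 tested genes, the log2 ratio of that last cluster was 2.44 in place of 1.76. H4C16, alone at chr12:14770720-14771131, had 6, 1 and 4 counts in Control and 10, 17 and 9 with WNK463 and was not tested. In all 6 positions the WNK463 samples lay above the Control samples.

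**Figure D3:**
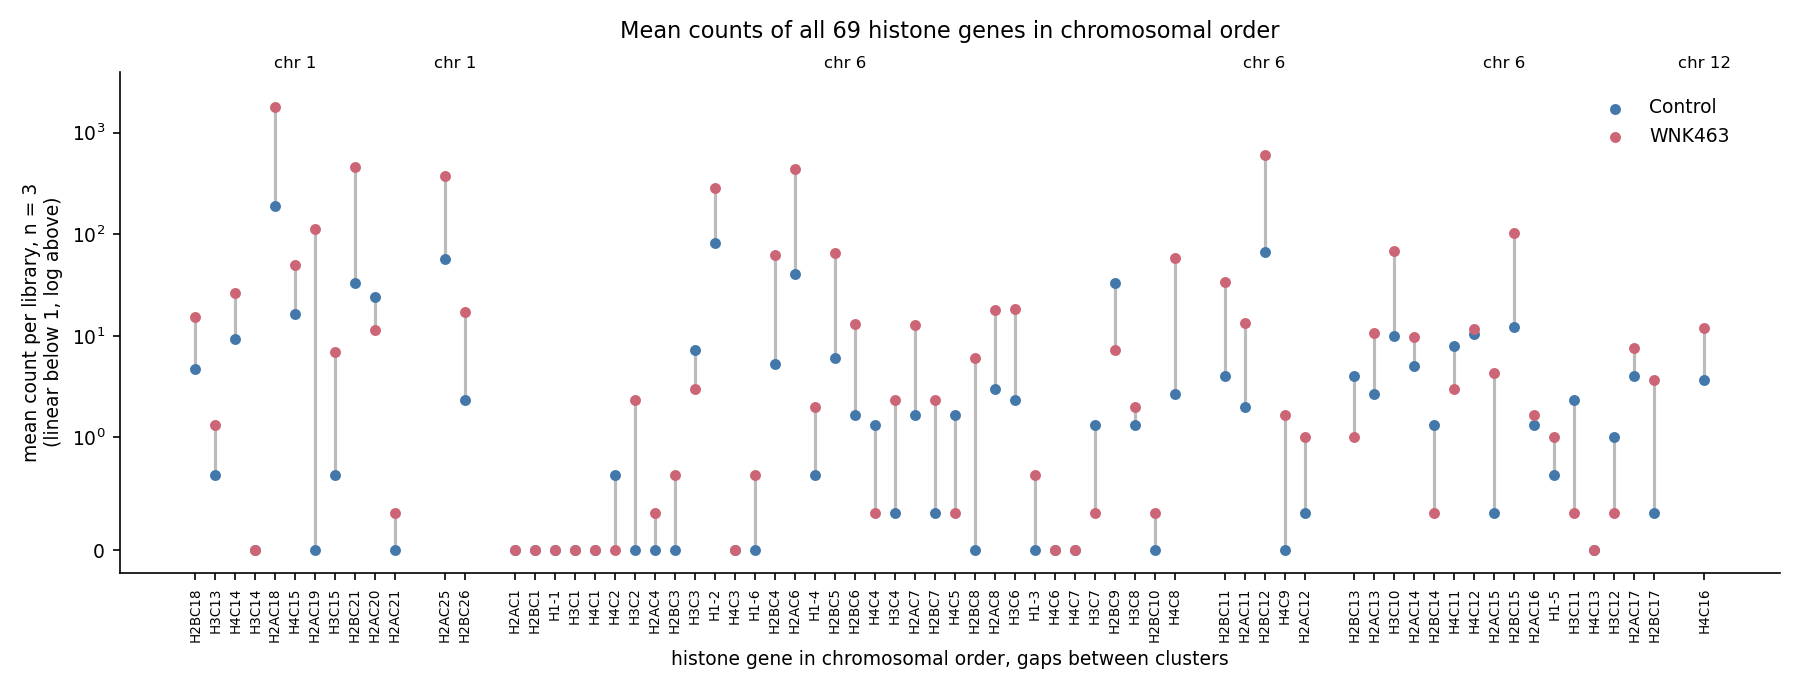
Mean count per library (n = 3) of all 69 histone genes in chromosomal order, linear below 1 and logarithmic above, with gaps between clusters. Genes with high counts stand beside genes at or near 0 in the same cluster, and H2AC18 has the highest mean in both groups.

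Within each cluster the counts were uneven. The 6 genes with the most counts with WNK463 (H2AC18, H2BC12, H2BC21, H2AC6, H2AC25 and H1-2) held 83.1% of the histone counts in that group and 69.8% in Control. Other protein-coding genes also lie inside the clusters. TRIM38, a ubiquitin ligase gene inside the largest cluster, fell by 0.46 on the log2 scale (standard error 0.07, edgeR adjusted p = 1.7e-05), though it was not called in either TPM fit. FCGR1A, an Fc receptor gene inside the larger chromosome 1 cluster, had a log2 fold change of -0.05 (standard error 0.06, edgeR adjusted p = 0.47), which was 0.10 with scaling by total counts and 0.14 with limma on log2(TPM + 1), the latter called higher. The phosphate transporter genes SLC17A1 to SLC17A4 had 0 counts in all samples. HFE, an iron regulator gene, had 0 counts in each Control sample and 7, 6 and 13 with WNK463, and was not tested.

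H2A and H2B genes often stand head to head, with starts 193 to 247 bases apart, and 12 such pairs were found. These pairs were singled out after their values were seen. In 5 pairs neither gene was tested and in 3 only 1 was, so 4 pairs could be called in both genes. In 3 of these 4 both genes rose: H2AC25 with H2BC26, H2AC6 with H2BC4, and H2AC11 with H2BC11. A gene could pass the filter on low counts through the group where it was high, so this count only describes these pairs. Over all genes tested 35.5% were higher and 35.3% lower, which are shares of single genes and not of pairs. In the remaining pair of the 4 the neighbours were called in opposite directions, since H2BC21 rose and H2AC20 fell. Their starts are 235 bases apart, their promoter windows overlap on opposite strands, and each window held all 3 motifs searched. The pair H2BC12 and H2AC12 differed in level, since H2AC12 had 0, 1 and 0 counts in Control and 3, 0 and 0 with WNK463 beside 50 or more for H2BC12 in every sample. H2BC8, the neighbour of H2AC8, had 0 counts in each Control sample and 7, 6 and 5 with WNK463, at least 1.91-fold higher when set against 3 counts per library.

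**Figure D4:**
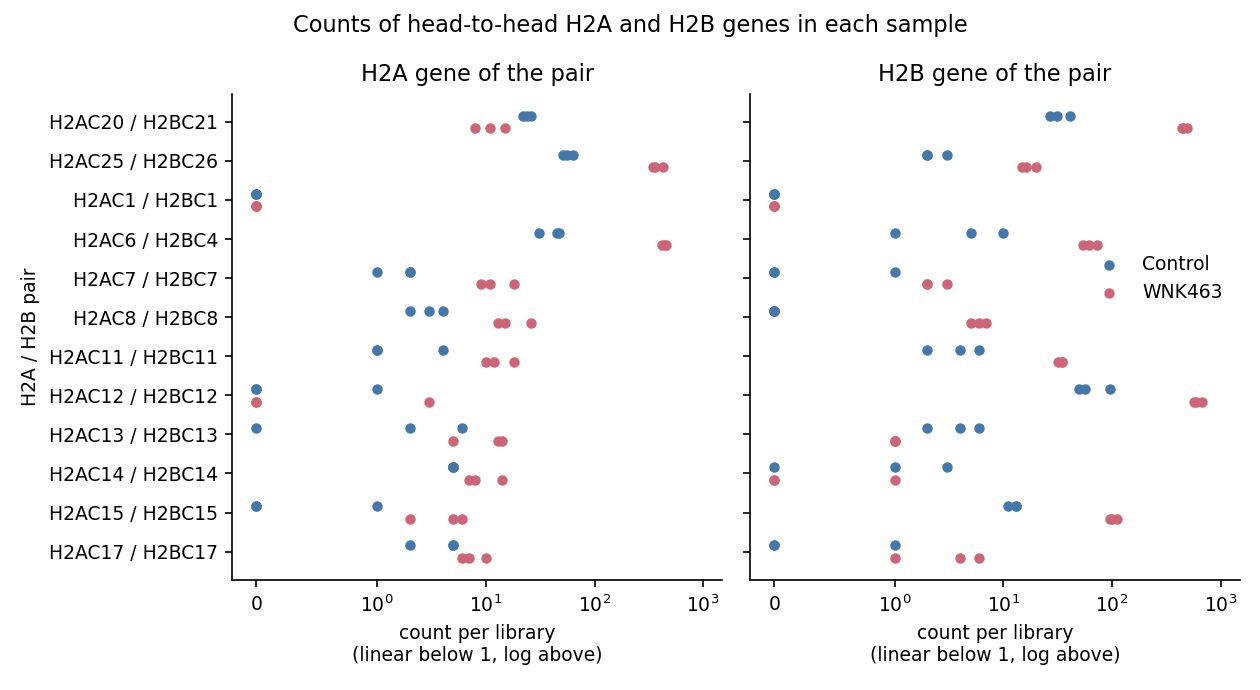
Counts in each sample for the H2A gene (left) and the H2B gene (right) of 12 head-to-head pairs, linear below 1 and logarithmic above. H2AC20 falls (26, 22 and 24 to 8, 15 and 11 counts) while its neighbour H2BC21 rises (31, 27 and 41 to 486, 450 and 442).

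Transcript models were compared with the stem-loop positions, using GENCODE 29. It may differ from the annotation behind the deposited counts, and for H2BC9 it did, as the transcript lengths below show. In 23 genes at least 1 annotated transcript ran more than 100 bases past the stem-loop, and 13 of these were tested, 12 called higher and 1 lower, beside 35.5% higher and 35.3% lower over all genes tested. The 1 called lower was H2BC9, which the deposited counts did not treat as a long transcript. The tested genes had passed the filter on low counts, so these counts only describe them. In 8 genes every transcript that held the stem-loop ended within 100 bases of it, and 3 of these were tested, all higher. H2BC5, 1 of these 3, also has a transcript with a 3′ UTR of 384 bases that does not hold it. In 34 genes no 3′ UTR was annotated, and 4 of these were tested, 2 higher, 1 lower and 1 not called. The remaining 4 genes had a 3′ UTR with no match, and 1 of them was tested and rose. The first class held 36.8% of the histone counts with WNK463 and the class ending near the stem-loop, which includes H2AC18, held 42.2%. In Control the order was reversed, with 722 counts in the first class and 641 in the class ending near the stem-loop. Whether the reads came from transcripts that end at the stem-loop or past it was not tested, since the counts are per gene.

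The deposited count divided by the deposited TPM gives the transcript length that the estimation used, here set against the median gene of each sample. For 16 histone genes with at least 10 counts in each group, 14 had a length ratio of WNK463 to Control between 0.8 and 1.2, as did 94.9% of the 11861 genes compared. H2BC15 differed most, with a relative length of 1.12 in Control and 0.499 with WNK463, a ratio of 0.446. Its samples were at 1.55, 1.56 and 0.735 in Control and 0.483, 0.506 and 0.507 with WNK463. The Control values rest on only 13, 11 and 13 counts, beside 100, 95 and 111 with WNK463. Of all genes compared 0.110% changed as much, a share that is not limited to genes with as few counts. H3C10 had a ratio of 1.37, but its Control samples at 0.252, 0.471 and 0.287 and its WNK463 samples at 0.462, 0.412 and 0.352 overlapped. H2AC18, H2BC12 and H2BC21 each had a ratio of 0.98.

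**Figure D5:**
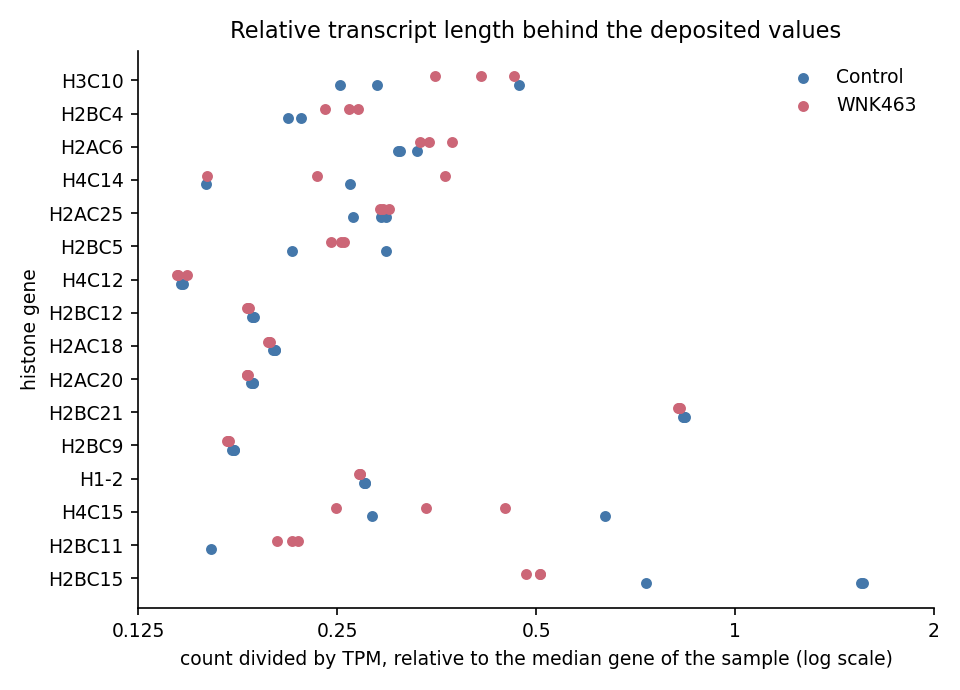
Deposited count divided by TPM for 16 histone genes, relative to the median gene of the same sample (log scale), for samples with at least 5 counts. H2BC15 lies at 0.735 to 1.56 in Control and 0.483 to 0.507 with WNK463, and most other genes have overlapping or adjacent points.

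Genes that make and process histone mRNA mostly moved the other way. Of 15 such genes tested, 11 were lower, 3 were higher and 1 was not called, beside 35.3% lower and 35.5% higher over all genes tested. Both limma fits on TPM called 7 of the 15 lower. Their median log2 fold change was -0.43. SLBP, the stem-loop binding protein gene and the most abundant of the list, went from 197.0 ± 13.1 to 133.3 ± 5.23 TPM (n = 3, SD), a log2 fold change of -0.79 on the count scale (standard error 0.05, edgeR adjusted p = 3.8e-10). UPF1, a helicase gene needed for histone mRNA decay, had a log2 fold change of -0.53 (standard error 0.05, edgeR adjusted p = 2.8e-08). Those that rose were TUT7, whose enzyme adds uridines to RNA ends, at 0.59, LSM10, a U7 snRNP subunit, at 0.36, and HINFP, an activator of H4 transcription, at 0.21. HINFP (edgeR adjusted p = 0.04) was not called by DESeq2 or with no filter on low counts, nor without Control replicate 2 (log2 fold change 0.19), Control replicate 3 (0.12), WNK463 replicate 1 (0.19), WNK463 replicate 2 (0.21) or WNK463 replicate 3 (0.22).

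Replication-independent histone genes, most of whose mRNAs are polyadenylated, held calls in both directions. Of 11 tested, 6 were lower, 3 were higher and 2 were not called, beside 35.3% lower and 35.5% higher over all genes tested. Their median log2 fold change was -0.14. MACROH2A1, a variant H2A with a large extra domain, went from 934.3 ± 16.8 to 1675 ± 15.0 TPM (n = 3, SD), a log2 fold change of 0.63 on the count scale. H2AJ rose by 0.94 and H3-3B, one of the genes for H3.3, by 0.45 on the log2 scale. H2AZ1, a variant H2A gene, fell by 0.69. H3-3A, the other main H3.3 gene, had a log2 fold change of -0.14 (edgeR adjusted p = 0.012), which was 0.02 with scaling by total counts.

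S-phase genes fell in 16 of 16 cases, beside 35.3% lower over all genes tested, with a median log2 fold change of -1.48. MCM4, MCM2 and MCM7, subunits of the replicative helicase, had log2 fold changes of -1.95, -1.92 and -1.53. PCNA, the sliding clamp, fell by 0.82 and RRM2, a subunit of ribonucleotide reductase, by 1.53. The histone genes that rose and the S-phase genes that fell were measured in the same libraries, and what links them was not tested.

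The samples carried most of the myeloid markers looked at. Of 11 myeloid markers, LYZ was the most abundant, at 1697 ± 63.1 TPM in Control and 417.6 ± 14.1 with WNK463 (n = 3, SD). SPI1, CD33, FLT3 and PTPRC were present while CD14 was near 0. MPO was low, at a mean of 4.34 TPM in Control and 0.922 with WNK463, as was ITGAM, at 2.23 and 6.07 TPM. Of the tested myeloid markers, 5 were higher, 4 lower and 1 not called. These counts stand beside 35.5% higher and 35.3% lower over all genes tested. The summed TPM of the 11 was 2399, 2505 and 2588 in Control and 1404, 1426 and 1434 with WNK463. LYZ set that direction, since without it the sums were 758.2, 821.1 and 823.1 in Control and 991.5, 1020 and 1001 with WNK463, and the markers' part in the histone result was not tested. The hemoglobin genes HBB and HBA1 and the epithelial markers EPCAM, CDH1 and KRT19 were at 0 TPM in all samples. T cell markers reached at most 0.105 TPM, B cell markers 0.842 TPM, and fibroblast and endothelial markers 0.427 TPM.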

How the data were processed

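The authors deposited a table of estimated counts, rounded to whole numbers and not normalized, and of TPM per gene and sample. Their processing notes name fastp, Bowtie2, HISAT2, StringTie, RSEM, DESeq2 and edgeR with build GRCh38, and the versions and roles are not given in the sources used here. The authors' columns of fold changes and p-values were not used. Counts were tested in R 4.3.3 with edgeR 4.0.16 (TMM, filterByExpr, quasi-likelihood test, Benjamini-Hochberg over all genes tested). The procedure was first checked on simulated data, where 200 of 11959 genes were changed, none of them at low counts. That check does not cover genes with few counts or a table where many genes change. A standard error is the size of the log2 fold change over the root of the F statistic. Alternatives used DESeq2 1.42.0, limma 3.58.1 on log2(TPM + 1) and log2(TPM + 0.1), other scalings and filters, a replicate block, and each sample left out. Every tested histone gene is named. Sample values are given for up to 3 genes per type with the highest mean TPM and for genes called against most of their type, and H2AC19, H2BC13, H3C6, H4C8, H4C11, H4C16, HFE and the untested pair genes were added after their values were seen. From each pathway list at most 5 genes are named, by mean TPM or for a call against the majority. Of the cell type markers, 1 is not reported here. The genes inside clusters were found from RefSeq. The members and lists were chosen with earlier results of these data known.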

Additional observations from a re-analysis of the deposited data

How the results depend on the processing

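Of the 18 genes called higher and 2 called lower, 7 and 0 were called when at least 10 counts were required in every sample, which left 7 genes to test, all of them called higher. With no filter 27 of 59 were called higher and 2 lower, with DESeq2 22 of 43 and 2, and in both limma fits 21 of 26 and 3. The median log2 fold change of 2.74 became 2.89 with total-count scaling, 2.66 with DESeq2, 1.87 without a filter, 3.13 where every sample needed at least 10 counts, 3.00 for a mean of at least 1 CPM and 1.65 with limma on log2(TPM + 1), and it lay between 2.54 and 2.82 with each sample left out. The number of genes tested differed between most of these fits.

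The log2 ratios of summed counts stayed above 0 in every alternative run. With total-count scaling they were 2.93 for all genes, 3.19 for H2A, 3.09 for H2B, 2.04 for H3, 3.26 for the larger chromosome 1 cluster and 2.46 for the largest chromosome 6 cluster. With sums of TPM they were 2.86 for all genes, 1.92 for H1, 3.19 for H2A, 2.88 for H2B, 1.34 for H3, 1.15 for H4, and, in the same 2 clusters, 3.24 and 2.15, with 1.33 for the 16-gene cluster on chromosome 6. Without the gene with the most counts they were 2.57 for all genes, 2.78 for H2A, 2.81 for H2B, 1.04 for H3, 2.89 for the chromosome 1 cluster, 1.82 for the largest chromosome 6 cluster and 1.19 for the 16-gene cluster. With only tested genes they were 2.83 for all genes, 3.00 for H2B, 2.77 for H3, 1.88 for H4 and 2.44 for the 16-gene cluster. Causes of these shifts were not tested.

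H4C12 changed sign without Control replicate 2 (between -0.42 and 0.65 with each sample left out) and with identical copies added up (-0.39), an alternative chosen after seeing the data. H3-3A changed sign with total-count scaling (0.017), and FCGR1A did with that scaling (0.101), with limma on log2(TPM + 1) (0.140) and on log2(TPM + 0.1) (0.142). Both limma fits called 7 of the histone mRNA processing genes lower, in place of 11. Over 38 named genes and their alternatives, 522 of 546 values kept their direction and side of the threshold, 18 lost the call and 6 changed sign.

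Same-numbered samples showed no shared deviation from their group means, with correlations of 0.0188, -0.0071 and -0.048. These values cannot show whether such samples were handled as pairs. With the replicate block, 18 histone genes were called higher and 2 lower, as without it. With 604 to 710 histone counts in each Control library, most single genes had too few counts to be tested, and identical copies limit what single-gene values show.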
